A study of Mus musculus with 4 samples.

Results

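The 44 genes described here are Wnt ligands, their receptors, secreted modulators of the pathway and a few genes inside the cell that the pathway acts through or turns on. They were chosen by symbol, as 19 ligands, 14 receptors or co-receptors, 7 secreted modulators and 4 intracellular genes, from the 32285 genes counted in the files, and all 44 were found there. Wnt proteins are secreted, lipid-modified signals that bind Frizzled receptors. With the co-receptors LRP5 and LRP6 they stabilise β-catenin, which joins TCF/LEF factors on DNA and raises target genes such as *Axin2* and *Sp5*. Other Wnt proteins, with Wnt5a as the best known, act mainly through ROR receptors on cell shape and polarity, and both branches are used by heart field progenitors and pharyngeal tissues.

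The cells were of the *Tbx1* lineage in mouse embryos at E9.5, sorted as EGFP-positive and DAPI-negative from the dissected pharyngeal region and heart. The cHet embryos were Tbx1Cre/+; Kmt2d F/+; GFP F/+ and the cKO embryos Tbx1Cre/+; Kmt2d F/F; GFP F/+, so the groups differ in whether 1 or both alleles of *Kmt2d*, an H3K4 methyltransferase gene, could be recombined. Cre is inserted into a *Tbx1* coding exon, so embryos of both groups were also heterozygous for *Tbx1*. The sort was meant to leave out cells that never expressed Cre, and its purity was not checked here. The labels call the mice outbred SwissWebster, while the study's methods give a mixed background of C57BL/6 and Swiss Webster for its mice in general. Each group had 2 libraries, made from 4 pooled embryos each in Rep1 and 3 pooled embryos each in Rep2, with a different version of the 10x Genomics 3′ kit in each replicate. By the study's somite counts the groups were not fully matched in stage. In Rep2 the cKO range began where the cHet range ended, and in Rep1 it lay within the cHet range. The part of stage in the results was not tested. The replicate is the library, with n = 2 for each genotype, since the embryos pooled in it carry no tag of their own. The p-values concern such pools and not single embryos, and they borrow much of their error from other genes, as described below.

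The libraries held 179454146 to 234726019 UMIs, unique molecular identifiers that each mark 1 captured transcript, and 5869 to 11938 cells per library were kept. *Kmt2d* itself stood in Rep1 at 17.4 CPM for cHet and 15.2 CPM for cKO, and in Rep2 at 23.9 and 21.0 CPM, where CPM are counts that were scaled to the UMIs of the cells summed. Recombination of the floxed exons need not change the count of a transcript's 3′ end, so these values do not check the labels. Cells of the same replicate shared 87 barcodes in Rep1 and 71 in Rep2, of which 12 and 46 had at least 3000 genes. The cells fell into 27 clusters, built without the 44 genes, and 16 of the clusters could be named for 11 cell types from markers. A name stands for cells with the markers of that type. The types were ectoderm, endoderm, otic vesicle, endothelium, anterior and posterior second heart field (aSHF and pSHF), cardiac muscle, multilineage progenitors (MLPs), branchiomeric muscle progenitors (BrM), neuronal cells and mesenchyme. The other 11 clusters held 14655 of the 33448 cells and were pooled as unnamed, which made 12 pools of cells.

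UMIs came from a 3′ kit, and levels of different genes were compared without a correction for length. Whether the length of a gene enters these levels was not tested. Levels of a gene across cell types are described without a test, as the mean CPM over the 4 libraries and the range. The highest, next and lowest types are given among the 11 named types. The pattern was uneven: 30 of the 44 genes reached a mean of 10 CPM in at least 1 named type, 14 did not, and 6 did so in all 11. Receptors made up most of the widespread genes, and ligands most of those that stayed low. Of the 19 ligands, 7 reached 10 CPM in a type and none did in all 11, whereas 12 of the 14 receptors did, 5 of them in every type.

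**Figure D1:**
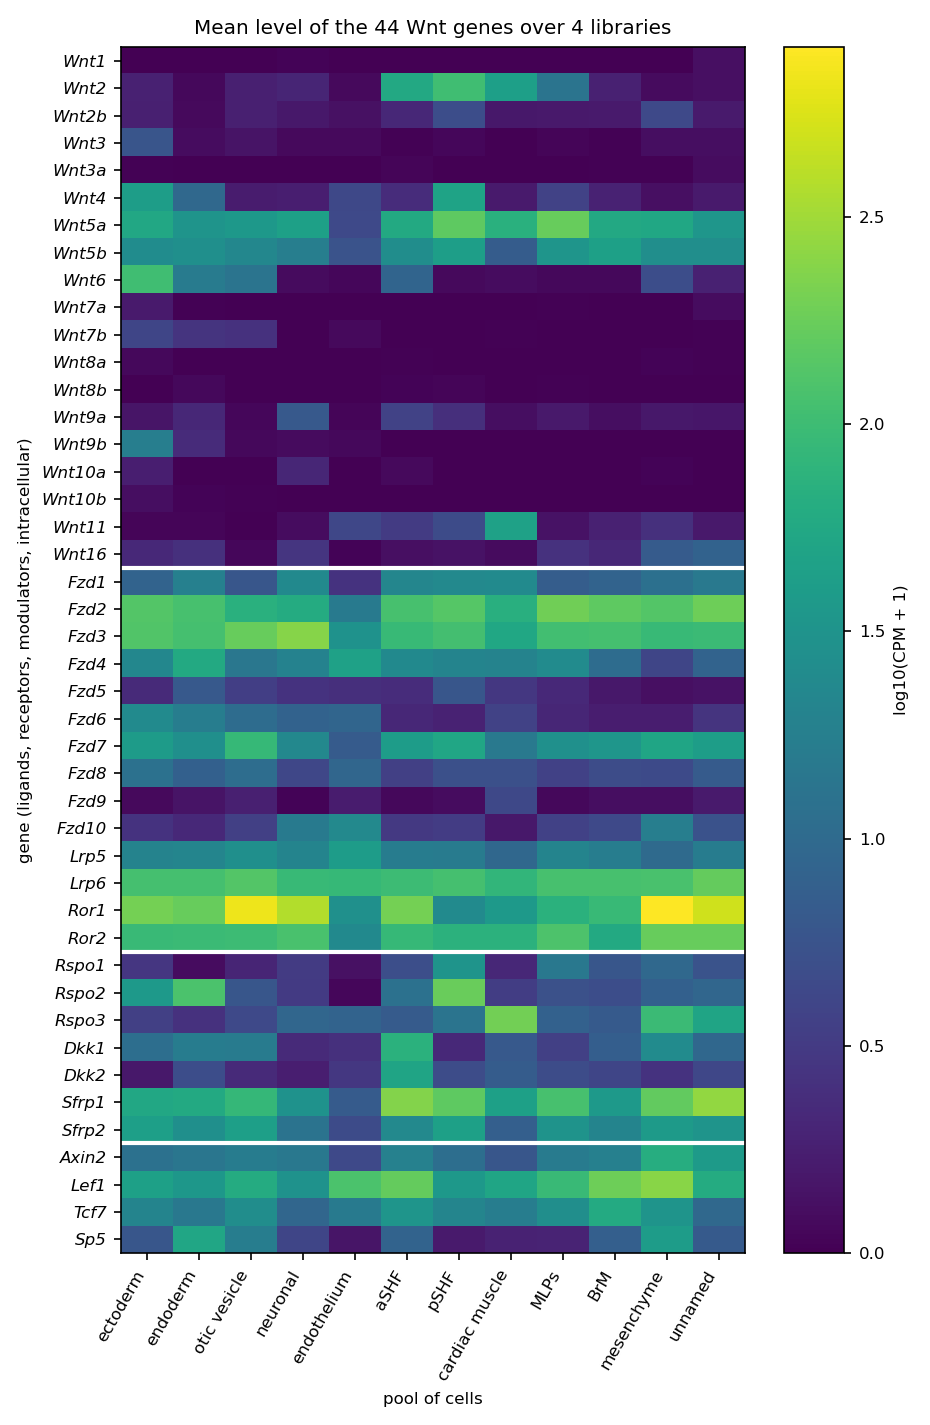
Mean level over the 4 libraries of each of the 44 genes (rows) in the 12 pools of cells (columns), as log10(CPM + 1), with white lines between ligands, receptors, secreted modulators and intracellular genes. The rows of *Fzd2*, *Fzd3*, *Lrp6*, *Ror1* and *Ror2* are bright in nearly all columns, and most ligand rows are dark.

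The pSHF, which builds the inflow end of the heart, held the most ligand transcripts. The 19 ligands summed to a mean of 358 CPM there (range 282 to 424), against 253 CPM in ectoderm (231 to 269) and 222 CPM in MLPs (174 to 279). The endothelium held the fewest, at 15.8 CPM (9.73 to 21.9), and its range did not overlap that of any of these types. By mean CPM *Wnt5a* was the leading ligand in 9 of the 11 named types, *Wnt6* in ectoderm and *Wnt5b* in endothelium. Ranges overlapped the next ligand in several types, as in aSHF, with *Wnt5a* at 57.3 CPM (44.1 to 65.6) and *Wnt2* at 55.5 CPM (36.8 to 70.1).

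*Wnt5a*, the ligand best known for signalling through ROR receptors, was highest in MLPs and pSHF. In MLPs the cHet and cKO libraries held 130 and 128 CPM in Rep1, and 206 and 223 CPM in Rep2. In pSHF it was at 132 and 125 CPM in Rep1, and in Rep2 at 185 and 172 CPM. The types overlapped, and in each the replicates lay further apart than the genotypes. In the other named types apart from endothelium the mean of *Wnt5a* was between 30.7 CPM in endoderm and 69.8 CPM in cardiac muscle, and in endothelium it was 3.35 CPM. *Wnt5b*, its close relative, was flatter, with 43.7 CPM in BrM (37.2 to 49.3) and 41.9 CPM in pSHF (39.5 to 44.3). It was low in cardiac muscle (5.97 CPM, 3.27 to 7.74) and endothelium (4.57 CPM, 3.41 to 5.67), so cardiac muscle held *Wnt5a* with little *Wnt5b*.

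*Wnt2*, a ligand of the β-catenin branch known from the heart's inflow region and lung mesoderm, was highest in the heart fields and cardiac muscle. In pSHF it stood at 62.1 CPM (cHet, Rep1), 79.4 CPM (cKO, Rep1), 124 CPM (cHet, Rep2) and 152 CPM (cKO, Rep2). In aSHF the same libraries gave 36.8, 70.1, 53.9 and 61.4 CPM, and in cardiac muscle 31.9, 52.4, 43.8 and 44.6 CPM. The ranges of these types overlapped. MLPs had 12.1 CPM (11 to 13.8), and no other named type reached 10 CPM.

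*Wnt4* was high in a pair of unrelated types. Its mean was 48.1 CPM in pSHF (39.2 to 58.9) and 40.3 CPM in ectoderm (33.5 to 46.6), which overlapped, and 8.50 CPM in endoderm (5.69 to 10.6). *Wnt11*, a ligand of cardiac muscle and its progenitors, was at 30.4 CPM (cHet, Rep1), 17.5 CPM (cKO, Rep1), 60.1 CPM (cHet, Rep2) and 73.7 CPM (cKO, Rep2) in cardiac muscle. The lowest of these values was above the highest in pSHF, the next type (3.64 CPM, 2.74 to 5.59). The cardiac muscle of cKO Rep1 held only 34 cells, and the 17.5 CPM there rest on 16 UMIs.

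The ectoderm, the surface cover of the arches, held the epithelial ligands. *Wnt6* was there at 108 CPM (cHet, Rep1), 122 CPM (cKO, Rep1), 105 CPM (cHet, Rep2) and 77.2 CPM (cKO, Rep2), all above its highest value in endoderm (24.5 CPM). In the endothelium *Wnt6* was at 0 to 0.260 CPM. *Wnt9b* was at 16.4 CPM in ectoderm (7.42 to 26.7) against 1.26 CPM in endoderm (0.316 to 1.88). *Wnt3* (4.87 CPM, 2.06 to 8.49) and *Wnt7b* (3.08 CPM, 1.95 to 4.43) were also highest there, with no overlap with the next type, otic vesicle for *Wnt3* and endoderm for *Wnt7b*. *Wnt9a* was highest in neuronal cells (5.55 CPM, 3.21 to 7.96) and overlapped aSHF. *Wnt2b* reached 3.92 CPM in pSHF (3.55 to 4.41) and 3.44 CPM in mesenchyme (2.30 to 3.95), which overlapped, and *Wnt16* 5.81 CPM in mesenchyme (3.13 to 7.47). *Wnt1*, *Wnt3a*, *Wnt7a*, *Wnt8a*, *Wnt8b*, *Wnt10a* and *Wnt10b* had at most 1.06 CPM in any named type, and between 7 UMIs (*Wnt10b*) and 96 UMIs (*Wnt1*) over all cells of the 4 libraries.

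**Figure D2:**
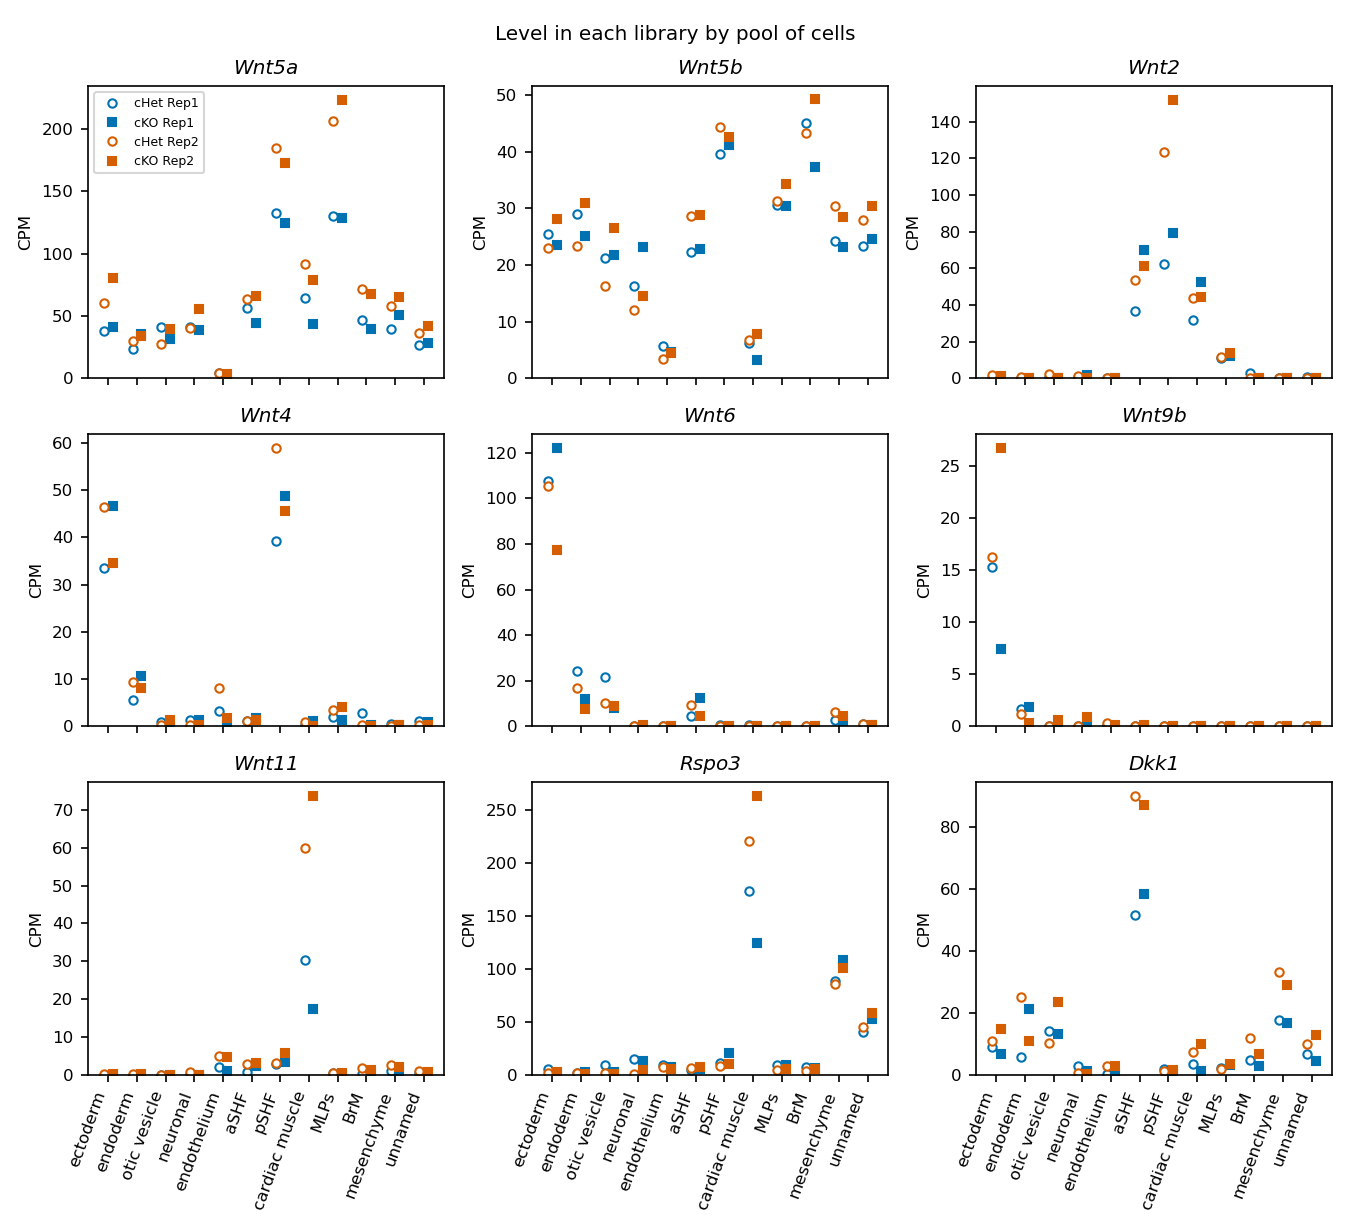
CPM in each library (circles for cHet, squares for cKO, blue for Rep1, orange for Rep2) of 7 ligands, *Rspo3* and *Dkk1* in the 12 pools of cells. *Wnt6* and *Wnt9b* stand out in ectoderm, *Wnt2* in aSHF, pSHF and cardiac muscle, *Wnt11* and *Rspo3* in cardiac muscle and *Dkk1* in aSHF.

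Many of the receptors were shared by most types, and some, such as *Fzd2* and *Fzd3*, were lowest in the endothelium. *Fzd5*, *Fzd6*, *Fzd8*, *Fzd9* and *Fzd10* reached a mean of 10 CPM in at most 3 named types. *Fzd2* ranged from 187 CPM in MLPs (138 to 239) to 15 CPM in endothelium (9.86 to 18.9). *Fzd3*, a Frizzled used in axon guidance and planar polarity, ranged from 241 CPM in neuronal cells (169 to 319) to 29.3 CPM in endothelium (23.4 to 34.7). The co-receptor *Lrp6* varied least, from 136 CPM in otic vesicle (108 to 169) to 80.3 CPM in cardiac muscle (68.9 to 90.3), and its endothelial level was 88.4 CPM (65.1 to 119). A few other receptors were high in the endothelium. *Lrp5* was highest there (39.9 CPM, 31.3 to 48.7), and so was *Fzd10* (22.2 CPM, 11.9 to 31.4), although both overlapped the next type. *Fzd4*, the Frizzled known from retinal vessels, was at 45.0 CPM in endothelium (28.5 to 65.0) and 58.0 CPM in endoderm (25 to 94.0). *Fzd4* was at 3.01 CPM in mesenchyme (1.68 to 4.19).

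*Ror1*, a receptor of the polarity branch, had the highest level of all 44 genes. In mesenchyme it was at 629 CPM (cHet, Rep1), 595 CPM (cKO, Rep1), 1011 CPM (cHet, Rep2) and 1007 CPM (cKO, Rep2). Otic vesicle followed with 692 CPM (457 to 896) and neuronal cells with 371 CPM (279 to 524). The lowest type was pSHF, with 25.2, 22.0, 23.8 and 22.4 CPM in the same order of libraries. The pSHF thus had the second highest level of *Wnt5a* and the lowest of *Ror1*. Among the named types *Ror2* was more even, from 169 CPM in mesenchyme (128 to 209) and 125 CPM in MLPs (107 to 143) to 22.8 CPM in endothelium (17.1 to 27.4). Its mean was higher in the unnamed clusters 5 (237 CPM), 12 (219 CPM), 4 (189 CPM) and 0 (175 CPM), with ranges that overlapped mesenchyme.

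The remaining Frizzled genes were lower. *Fzd7* was highest in otic vesicle (87.0 CPM, 47.0 to 131) and overlapped pSHF (52.0 CPM, 30.6 to 80.7). *Fzd6* was highest in ectoderm (23.6 CPM, 13.8 to 32.7) and *Fzd1* in cardiac muscle (23.8 CPM, 8.73 to 36.4), each overlapping the next type. *Fzd8* reached 11.1 CPM in ectoderm (7.56 to 14.4). *Fzd5* stayed at or under 5.51 CPM, its mean in endoderm. *Fzd9* was the single receptor whose lowest value in its highest type, cardiac muscle (3.27 CPM, 2.18 to 4.62), lay above all values of the next one (otic vesicle, 0.420 to 0.972), on 2 to 18 UMIs per library.

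Secreted modulators differed strongly between types, and for 4 of 7 the highest type did not overlap the next. *Rspo3* and the other R-spondins amplify Wnt signals by keeping receptors at the cell surface. *Rspo3* was at 174 CPM (cHet, Rep1), 124 CPM (cKO, Rep1), 221 CPM (cHet, Rep2) and 263 CPM (cKO, Rep2) in cardiac muscle, above mesenchyme (95.9 CPM, 86.0 to 108). *Rspo2* was led by pSHF, with 161, 168, 157 and 221 CPM in that order of libraries, and endoderm, with 162, 159, 83.7 and 80.7 CPM. In endoderm *Rspo2* differed about as much between replicates as between types. *Rspo1* was at 31.1 CPM in pSHF (27.6 to 36.7) and 13.5 CPM in MLPs (11 to 15). The leading R-spondin therefore differed, with *Rspo2* in pSHF and *Rspo3* in cardiac muscle. The split was not complete, since pSHF also held *Rspo3*, on 69, 86, 84 and 103 UMIs in that order of libraries. The aSHF held some *Rspo2*, as given below.

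The inhibitors *Dkk1*, *Dkk2* and *Sfrp1* were highest, among the named types, in the aSHF, which builds the outflow tract and right ventricle. *Dkk1*, which blocks LRP5 and LRP6, was at 51.5 CPM (cHet, Rep1), 58.4 CPM (cKO, Rep1), 90.1 CPM (cHet, Rep2) and 87.4 CPM (cKO, Rep2) there, above mesenchyme (24.1 CPM, 16.6 to 33.3). It was at 1.19 CPM in pSHF (0.232 to 1.94). *Dkk2* was at 35.1, 73.1, 42.5 and 44.7 CPM in aSHF in the same order, against at most 16.5 CPM in a library of cardiac muscle. *Sfrp1*, which encodes a secreted Frizzled-like protein that binds Wnt proteins, was at 230 CPM in aSHF (156 to 295), 163 CPM in mesenchyme (113 to 229) and 153 CPM in pSHF (97.9 to 200), which overlapped. It was at 5.86 CPM in endothelium (5.45 to 6.23). *Sfrp2* was at 43.5 CPM in pSHF, 43.2 CPM in otic vesicle and 42.7 CPM in ectoderm, with overlapping ranges.

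The intracellular genes are read as outputs of the β-catenin branch or as its DNA-binding partners. *Axin2*, a feedback inhibitor that the pathway itself raises, was at 66.0 CPM (cHet, Rep1), 63.5 CPM (cKO, Rep1), 63.0 CPM (cHet, Rep2) and 64.2 CPM (cKO, Rep2) in mesenchyme. These values were close together in both genotypes and kits, and all lay above aSHF, the next type (17.9 CPM, 13.0 to 22.0). *Lef1* was highest in mesenchyme too (248 CPM, 183 to 315), followed by BrM (185 CPM, 99.4 to 295), aSHF (165 CPM, 137 to 198) and endothelium (121 CPM, 84.1 to 170). In the endothelium *Lef1* was thus high while *Axin2* was at 3.44 CPM (2.98 to 3.95), its lowest type. *Tcf7* was highest in BrM (58.3 CPM, 31.3 to 99.6) and overlapped aSHF. *Sp5*, a transcription factor gene raised directly by β-catenin, was at 52.0 CPM in endoderm (46.6 to 55.6) and 40.0 CPM in mesenchyme (26.8 to 57.1), and at 0.461 CPM in endothelium.

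The letters bound by TCF/LEF factors were looked for before the gene starts, because *Sp5* is read as a target and *Dkk1* is both a feedback inhibitor of the pathway and 1 of the genes that differed between genotypes below. CTTTGAT and CTTTGAA were searched on both strands of the 250 bases before each start in the RefSeq table for GRCm38.p6. The table held 31 of the 44 genes. At least 1 match was found in 4 of these 31 (*Sp5*, *Dkk1*, *Wnt5b* and *Wnt11*), which is 12.9%, against 8.63% of all 27025 genes in the table. The whole window of *Sp5* (chr2:70474673-70474922, plus strand) is printed first, and for *Dkk1* the match with its neighbouring bases. Both read 5′ to 3′ along the gene, with the match in capitals. It starts 104 bases before the start of *Sp5* and 117 bases before the RefSeq start of *Dkk1*, at base 30549613 of chromosome 19 (minus strand). The GENCODE annotation starts *Dkk1* further upstream, so by that annotation its match lies inside the transcribed gene, as does the match of *Wnt5b*.

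Sp5: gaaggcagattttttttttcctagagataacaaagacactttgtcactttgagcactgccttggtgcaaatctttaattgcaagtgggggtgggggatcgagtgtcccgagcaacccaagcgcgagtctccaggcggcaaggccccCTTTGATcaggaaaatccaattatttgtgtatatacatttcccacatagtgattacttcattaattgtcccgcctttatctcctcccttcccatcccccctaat

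Dkk1: cctcccaaagCTTTGAAatcccatccc

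A match describes the letters and is not shown to be a bound site. *Axin2*, *Lef1* and *Tcf7* had no match in these windows, which says only that the letters are not there.

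The next comparison is of cKO with cHet libraries, which differ in whether 1 or both alleles of *Kmt2d* could be recombined. Their embryos also differed in somite range, as given above. A few genes differed between them in the main fit, each in 1 or 2 pools of cells and mostly by less than a doubling. Lower in cKO were *Wnt4* in endothelium, *Wnt6* in endoderm, and *Ror2* and *Dkk1* in BrM. Higher in cKO were *Rspo3* in mesenchyme and unnamed cells, *Wnt5a* in mesenchyme, and *Sfrp2* in endoderm in the fit, although *Sfrp2* was lower in cKO in Rep1. The UMIs of a pool were added up within each library and compared with edgeR's quasi-likelihood test with the replicate as a block, adjusted by Benjamini-Hochberg over all genes tested in that pool. Of the 44 genes, 40 were tested in at least 1 pool and 17 in all 12. *Wnt8a*, *Wnt8b*, *Wnt10a* and *Wnt10b* passed the filter on low counts in none. The 334 tests of a Wnt gene in a pool gave 8 calls at an adjusted p under 0.05, 4 lower and 4 higher in cKO, in 7 genes and 5 pools. On GRCm38 the called genes, all protein coding, lie with *Wnt4* at chr4:137277489-137299726 (plus strand), *Wnt6* at chr1:74771892-74785322 (plus strand), *Wnt5a* at chr14:28504750-28527448 (plus strand), *Rspo3* at chr10:29452416-29535867 (minus strand). The others are *Ror2* at chr13:53109312-53286124 (minus strand), *Dkk1* at chr19:30545863-30549665 (minus strand) and *Sfrp2* at chr3:83766321-83774316 (plus strand).

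The calls are read against the share of all genes called in the same pool. They were 2 of 25 Wnt genes in endoderm (0.435% of all genes), 1 of 25 in endothelium (0.432%), 2 of 28 in BrM (0.981%), 2 of 30 in mesenchyme (1.61%) and 1 of 38 in unnamed cells (0.445%). No Wnt gene was called by edgeR in the other pools, where the share of all genes called was 0.0634% in ectoderm, 1.16% in otic vesicle, 0.0975% in aSHF, 0.0509% in cardiac muscle, 0.528% in pSHF, 0.297% in MLPs and 0.0% in neuronal cells. At an unadjusted p under 0.05 these pools held 4 of 28, 4 of 22, 7 of 32, 3 of 24, 4 of 29, 2 of 29 and 3 of 24 Wnt genes in that order, beside 4.25%, 6.23%, 4.66%, 4.12%, 5.82%, 6.13% and 4.0% of all genes. DESeq2 called none in them. Over all cells together, edgeR called 0 of 41 Wnt genes (0.0% of all genes). DESeq2 called 1, *Rspo3* (log2 fold change 0.40, adjusted p = 0.0202), among 62 of 20126 genes, and edgeR called it too with all genes of at least 1 count (adjusted p = 0.0340). In the filtered edgeR fit 7 had an unadjusted edgeR p under 0.05, beside 5.66% of all genes. The median log2 fold change of the Wnt genes lay between -0.080 in cardiac muscle and 0.087 in aSHF, and that of all genes in the same fits between -0.0090 and 0.016.

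All 8 calls rest on the block. Without it edgeR called no Wnt gene in any pool, and no other gene either. The fits with 1 of the 4 libraries left out had no block either, so their 0 calls add nothing to that. DESeq2 with the block called 1, *Rspo3* in unnamed cells. With 4 libraries and a block, a fit has 1 residual degree of freedom for each gene and borrows the rest of its error from other genes. The SE printed with a fold change comes from that fit and is not a spread of the 4 libraries.

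**Figure D3:**
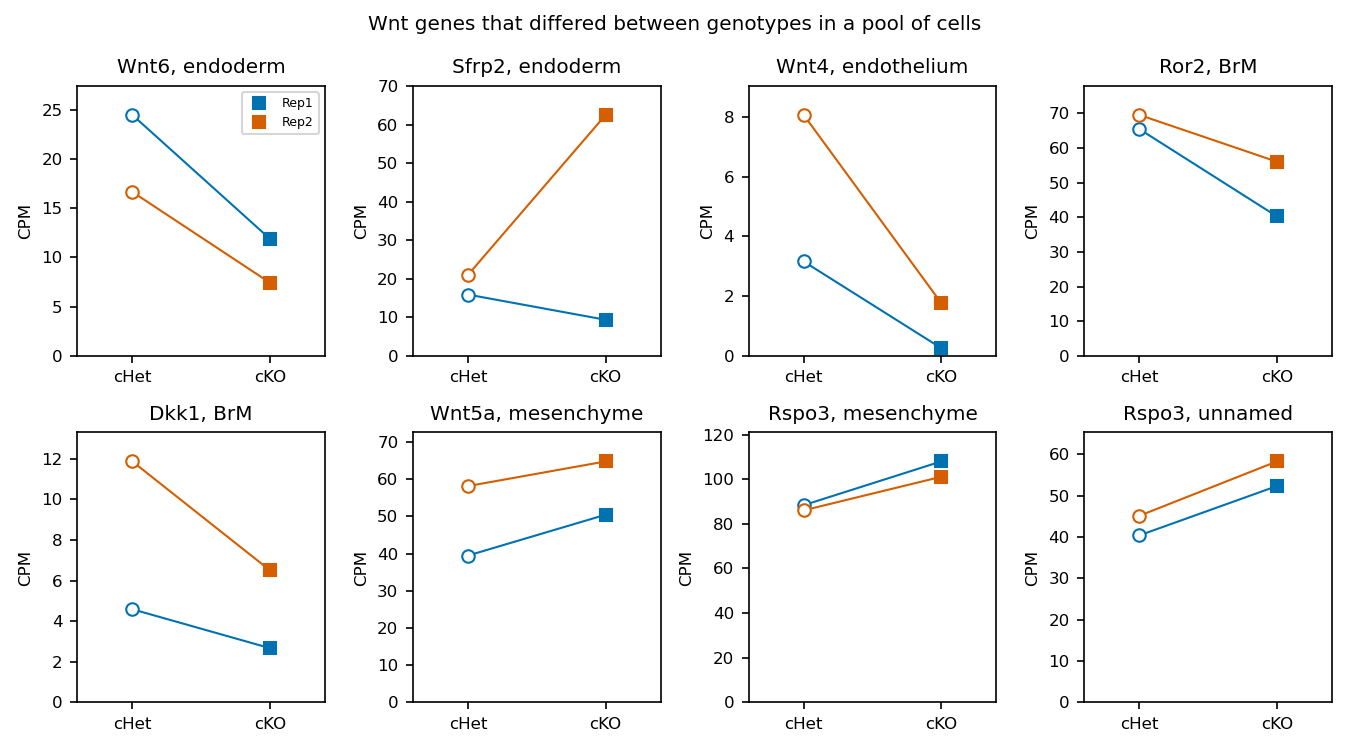
CPM of the 7 called genes in the 8 combinations of gene and pool, with circles for cHet and squares for cKO joined within Rep1 (blue) and Rep2 (orange). Lines slope the same way in both replicates in 7 panels, and opposite ways for *Sfrp2* in endoderm, where cKO Rep2 reached 62.6 CPM.

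*Wnt4* in endothelium had the largest change. It was at 3.16 CPM in cHet and 0.260 CPM in cKO of Rep1, and at 8.07 and 1.77 CPM in Rep2, on 29, 2, 90 and 20 UMIs. Both cKO values were below both cHet values, with a log2 fold change of -2.45 ± 0.38 (SE, adjusted p = 9.89e-05). These few UMIs came from very few cells: 7, 2, 9 and 11 cells held them, and a single cell gave 18 of the 29 in cHet Rep1 and 43 of the 90 in cHet Rep2.

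Nearly all of this *Wnt4* lay in 1 endothelial cluster, number 25, which was led by the arterial connexin genes *Gja4* and *Gja5* and by *Npr3*. That cluster held 26 of the 29 UMIs in cHet Rep1, 0 of the 2 in cKO Rep1, all 90 in cHet Rep2 and 19 of the 20 in cKO Rep2. Its share of the endothelium was 6.16% (25 of 406 cells) in cHet and 0.725% (2 of 276) in cKO of Rep1, and 10.8% (57 of 528) and 13.0% (87 of 671) in Rep2. Within Rep2, where its share was not smaller in cKO, *Wnt4* in cluster 25 was at 86.4 CPM in cHet and 14.5 CPM in cKO, a comparison of 1 library each in which 1 cell gave 43 of the 90 cHet UMIs. The part of the cluster's share in the result was not tested. In an analysis without cluster 25, chosen after seeing these values, the rest of the endothelium held 3, 2, 0 and 1 *Wnt4* UMIs. None of the 22 Wnt genes tested was called, but so few UMIs could not have given a call for *Wnt4*. The 6 markers of pSHF, the type with the most *Wnt4*, summed in the endothelium to 22.9 CPM in cHet Rep1, 16.4 CPM in cKO Rep1, 54.9 CPM in cHet Rep2 and 62.5 CPM in cKO Rep2. In cluster 25 they summed to 203, 49.9, 349 and 378 CPM in that order, with 1 to 5 of them at 0. *Gata4*, a gene of this list, was among the leading genes of an endothelial cluster in the clustering with at least 1000 genes per cell. The sums therefore do not tell pSHF cells from endothelial cells that hold genes of the list. The 7 markers of the ectoderm, which also makes *Wnt4*, summed in the endothelium to 0.260 to 0.654 CPM, with 3 to 5 of them at 0. The part of these marker levels in the result was not tested.

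*Wnt6* in endoderm was the other ligand that fell. It was at 24.5 CPM in cHet and 11.9 CPM in cKO of Rep1, and at 16.6 and 7.42 CPM in Rep2. The groups did not overlap, the log2 change was -1.07 in each replicate, and the fitted value was -1.12 ± 0.28 (SE, adjusted p = 0.0277), on 43, 19, 72 and 47 UMIs. The 7 markers of ectoderm, the type with the most *Wnt6*, summed in the endoderm pool to 42.7, 63.1, 58.9 and 53.9 CPM in the libraries in the order given, with 1 to 3 of them at 0. They were higher in cKO in Rep1 and lower in cKO in Rep2. In ectoderm itself the log2 fold changes of *Wnt6* were of opposite sign in the replicates. In otic vesicle *Wnt6* was at 21.6 and 7.98 CPM in Rep1, and in Rep2 at 10.3 and 8.94 CPM (log2 fold change -0.77 ± 0.30, adjusted p = 0.37).

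*Sfrp2* in endoderm was called as higher in cKO (log2 fold change 1.06 ± 0.22 SE, adjusted p = 0.00105) without the replicates moving together. It was at 15.9 CPM in cHet and 9.38 CPM in cKO of Rep1, and at 21.0 and 62.6 CPM in Rep2, so 3 libraries were low and cKO Rep2 stood apart. The log2 change was -0.79 in Rep1 and 1.58 in Rep2. In cKO Rep2 the 396 UMIs were spread over 94 cells, with at most 43 in 1 cell. The 6 markers of pSHF, the type with the highest *Sfrp2*, summed in the endoderm pool to 27.3, 15.6, 15.5 and 29.7 CPM in the same order, so they too were lower in cKO in Rep1 and higher in Rep2. The 6 otic vesicle markers summed there to 3.41, 9.38, 6.24 and 6.95 CPM, and the part of these cells in the result was not tested. Without cKO Rep2, in a fit with no block, the log2 fold change was -0.84.

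In BrM, the progenitors of jaw and face muscles, the receptor *Ror2* and the inhibitor *Dkk1* both fell. *Ror2* was at 65.5 CPM in cHet and 40.3 CPM in cKO of Rep1, and at 69.6 and 56.0 CPM in Rep2. Both cKO values were below both cHet values (log2 fold change -0.45 ± 0.09 SE, adjusted p = 0.0265). It was lower in cKO in both replicates in each of the 3 BrM clusters, numbers 11, 14 and 15.

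*Dkk1* in BrM was at 4.59 and 2.67 CPM in Rep1, and in Rep2 at 11.9 and 6.50 CPM, so that cKO Rep2 was above cHet Rep1 and the groups overlapped. The log2 change was -0.71 in Rep1 and -0.83 in Rep2 (fitted -0.81 ± 0.18 SE, adjusted p = 0.0273). Cluster 14, led by *Tlx1* and *Edn1* among others, held most of its UMIs in all libraries but cKO Rep1, where it held 2: *Dkk1* was there at 13.3 and 1.43 CPM in Rep1, and in Rep2 at 28.5 and 12.8 CPM. That cluster made up 24.6% and 16.3% of BrM in Rep1 and 34.0% and 33.4% in Rep2, and in cluster 15 *Dkk1* was higher in cKO in both replicates (0.451 and 1.72 CPM in Rep1, on 1 and 6 UMIs, and 1.57 and 4.18 CPM in Rep2). In cluster 11, with 30.4% to 53.4% of BrM, it was higher in cKO in Rep1 (2.16 and 3.48 CPM) and lower in Rep2 (7.71 and 4.03 CPM), so the clusters did not move alike. *Lef1* in BrM was also lower in cKO in both replicates without passing the threshold (log2 fold change -0.29 ± 0.07, adjusted p = 0.0628). Among the alternatives it passed with cells thinned to 5000 UMIs (82 of 11552 genes called) and with all genes of at least 1 count (399 of 22542), and not under the others. Without cKO Rep1 and without cHet Rep2 its log2 fold change was positive, at 0.055 and 0.27. Those fits had no block and mix kit with genotype.

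*Rspo3* was the single gene called in more than 1 pool. In mesenchyme it was at 88.4 CPM in cHet and 108 CPM in cKO of Rep1, and at 86.0 and 101 CPM in Rep2. Both cKO values were above both cHet values (log2 fold change 0.28 ± 0.06 SE, adjusted p = 0.00394). In the unnamed cells it was at 40.4 and 52.3 CPM in Rep1, and in Rep2 at 45.1 and 58.3 CPM, again without overlap (0.38 ± 0.05, adjusted p = 0.0183). Not all unnamed clusters shared this: in cluster 2 it was at 10.4 and 10.0 CPM in Rep1, and in Rep2 at 8.94 and 9.58 CPM, and in cluster 4 at 48.7 and 70.8 CPM in Rep1 but at 62.4 CPM in both libraries of Rep2. Without clusters 23 and 24, whose cells came mostly from Rep1, and 26, whose cells held few UMIs, *Rspo3* was still called in the unnamed cells. In that run, chosen after seeing the clusters, *Rspo1* was called as well, and so were more genes in general, 242 of 17307. In cardiac muscle, where *Rspo3* was highest, it was lower in cKO in Rep1 (174 and 124 CPM) and higher in Rep2 (221 and 263 CPM), and it was not called.

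*Wnt5a* in mesenchyme had the smallest of the called changes. It was at 39.5 CPM in cHet and 50.5 CPM in cKO of Rep1, and at 58.2 and 64.8 CPM in Rep2. Higher values came with cKO within each replicate, but cHet Rep2 was above cKO Rep1, so the groups overlapped (log2 fold change 0.26 ± 0.07 SE, adjusted p = 0.037). In the mesenchyme pool the 8 cardiac muscle markers summed to 12.5 and 7.24 CPM in Rep1 and to 19.5 and 16.3 CPM in Rep2, lower in cKO each time. The 5 neural crest markers summed there to 37.2 and 35.2 CPM in Rep1 and to 53.8 and 54.6 CPM in Rep2, and the part of either list in the result was not tested.

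In the heart fields no Wnt gene was called. In aSHF 13 of the 32 tested were higher and 4 lower in cKO in both replicates, and in pSHF 8 of 29 were higher and 9 lower. The share with the same sign was 53.1% in aSHF, beside 48.7% of all genes, and 58.6% in pSHF, beside 51.1%. Of the 4 lower in aSHF, *Tcf7* had log2 changes of -0.28 and -0.26 (fitted -0.27 ± 0.11, adjusted p = 0.941). In aSHF *Rspo2* was at 8.29 and 14.2 CPM in Rep1, and in Rep2 at 7.42 and 14.9 CPM (log2 fold change 0.89 ± 0.17, adjusted p = 0.0919). *Wnt2* in aSHF had log2 changes of 0.91 in Rep1 and 0.20 in Rep2 (fitted 0.54 ± 0.13, adjusted p = 0.378), *Dkk2* 1.04 and 0.09 (0.56 ± 0.16, adjusted p = 0.509) and *Sfrp1* 0.40 and 0.18 (0.28 ± 0.07, adjusted p = 0.418). *Rspo2*, *Wnt2*, *Dkk2* and *Sfrp1* were called in aSHF when the cells were clustered with the Wnt genes allowed (66 of 13399 genes called) and when all genes with at least 1 count were tested (83 of 21435). Under the other alternatives that had an aSHF pool, no Wnt gene was called in it. In pSHF *Rspo2* (log2 fold change 0.28 ± 0.08, adjusted p = 0.221) was called when all genes with at least 1 count were tested (adjusted p = 0.0471, 127 of 21143 genes called), and under no other alternative. In pSHF *Wnt2* had log2 changes of 0.33 and 0.29 (0.30 ± 0.08, adjusted p = 0.116), and *Rspo3* 0.81 and 0.34 (0.57 ± 0.20, adjusted p = 0.428).

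The next largest changes with the same sign in both replicates were mostly in genes of few UMIs, and none of them was called in the main fit. They were *Sp5* and *Fzd8* in ectoderm, *Dkk2* in endoderm, *Fzd1* and *Sp5* in otic vesicle, *Wnt5a* in endothelium, *Wnt11* in aSHF, *Sfrp2* and *Fzd6* in cardiac muscle, *Dkk2* in pSHF, *Fzd6* and *Dkk1* in MLPs, *Rspo1* in BrM, *Sp5* and *Wnt9a* in neuronal cells, *Wnt9a* and *Rspo1* in mesenchyme, and *Wnt1* and *Rspo1* in unnamed cells. *Wnt9a* in neuronal cells gave 33 UMIs in cHet and 14 in cKO in each replicate (log2 fold change -1.16 ± 0.33, adjusted p = 0.92). *Rspo1* in unnamed cells had log2 changes of -0.53 and -0.81 (fitted -0.68 ± 0.12, adjusted p = 0.0766). It was called there with at least 1000 genes per cell (202 of 17571 genes called) and when clustered with the Wnt genes (189 of 17548). With all genes of at least 1 count (598 of 25040) both *Rspo1* and *Wnt1* were called in unnamed cells.

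**Figure D4:**
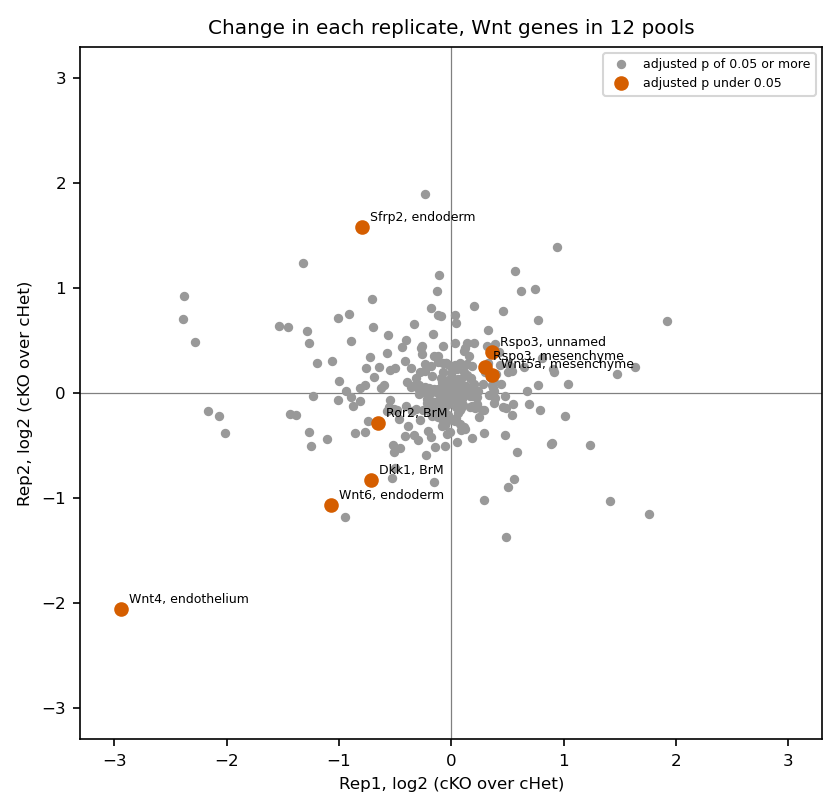
Log2 change of cKO over cHet in Rep1 (horizontal) and in Rep2 (vertical) for each Wnt gene tested in each of the 12 pools, 334 points, with the 8 called points in orange and named. Points lie on all sides of 0, and *Wnt4* in endothelium is the farthest of the called points.

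The replicates gave many Wnt genes opposite signs. Of the 334 tests, 183 (54.8%) had the same sign in Rep1 and Rep2, 99 lower and 84 higher in cKO, against 50.9% of all tests over the same pools. Per pool the share ran from 32.1% in ectoderm to 65.8% in unnamed cells, and for all genes from 48.3% to 55%.

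Whether the response to genotype differed between pools was tested in 1 fit over all pools, as the effect in a pool minus the mean effect in the other 11. Of the 456 tests of a Wnt gene in a pool, 1 was called, *Sfrp2* in endoderm, with a difference of 1.35 on the log2 scale (adjusted p = 0.025). In endoderm 0.0537% of all genes were called, and over the 12 pools 0.0482% of all tests. This is the gene whose replicates went opposite ways. The other called changes, *Wnt4* in endothelium included, were not shown by this fit to be particular to their pool. With all genes of at least 1 count, 15 tests of a Wnt gene were called, beside 0.157% to 0.511% of all genes in a pool.

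Beyond the 44 genes, 61 other genes of the pathway were read in the same fits, and 59 were tested in at least 1 pool. The 576 tests gave 10 calls in 8 genes, 7 lower and 3 higher in cKO. They were 3 of the 43 tested in otic vesicle (1.16% of all genes called there), 2 of 50 in BrM (0.981%), 1 of 50 in mesenchyme (1.61%), 1 of 51 in MLPs (0.297%), 1 of 47 in pSHF (0.528%), 1 of 46 in endothelium (0.432%) and 1 of 56 in unnamed cells (0.445%). All 3 higher calls were *Myc*, a growth regulator that β-catenin raises in many tissues, in BrM (log2 fold change 0.68 ± 0.11 SE, adjusted p = 0.00478), mesenchyme (0.40 ± 0.08, adjusted p = 0.000781) and MLPs (0.40 ± 0.09, adjusted p = 0.0437). It was higher in cKO in both replicates in each of them. Without cKO Rep2 its log2 fold change was below 0 in mesenchyme and MLPs, in fits with no block that mix kit with genotype. *Ccnd1*, which encodes cyclin D1 and is another common target, fell in pSHF (-0.36 ± 0.07, adjusted p = 0.00654), by -0.31 and -0.40 in the replicates. Without cHet Rep2 its value was 0.037, again in a fit with no block. *Myc* was also higher in cKO in both replicates, without being called, in ectoderm, endoderm, endothelium, aSHF, neuronal and unnamed cells. In pSHF its log2 changes were -0.67 and 0.09, and in cardiac muscle -1.40 and 0.92. The calls of *Myc* and *Ccnd1* thus had opposite signs in different types, and that contrast was not tested.

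The other 6 calls were all lower in cKO. *Nkd1*, a feedback inhibitor that binds Dishevelled, fell in BrM (-0.64 ± 0.14, adjusted p = 0.0273), with log2 changes of -0.63 and -0.64. In otic vesicle *Apcdd1*, a membrane-bound inhibitor, fell (-1.08 ± 0.25, adjusted p = 0.00282), as did *Prickle1*, a core polarity gene (-1.57 ± 0.31, adjusted p = 0.000103), and *Daam1*, which links Dishevelled to actin (-0.66 ± 0.18, adjusted p = 0.0276). *Prickle1* had 85 UMIs in cHet and 11 in cKO of Rep1 but a log2 change of only -0.12 in Rep2, so Rep1 carried its call. *Apcdd1* also changed more in Rep1, with log2 changes of -2.05 and -0.60. Its fitted value went from -2.11 without cKO Rep2, where the fit had no block, to -0.31 with cells thinned to 5000 UMIs. *Daam1* went from -0.88 to -0.38 between the same alternatives. *Gpc6*, a glypican, fell in endothelium (-0.34 ± 0.08, adjusted p = 0.0325), by -0.35 and -0.33 in the replicates, and its value went from -1.44 with at least 1000 genes per cell to -0.17 with doublets kept. *Prickle2* fell in unnamed cells (-0.33 ± 0.05, adjusted p = 0.0479). Without the replicate block, and by DESeq2, none of these 10 was called. None of the otic vesicle calls stood with at least 1000 genes per cell, with doublets kept, or with cells thinned to 5000 UMIs, where *Prickle1* was not tested.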

How the data were processed

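Per the labels and file headers, the authors ran Cell Ranger on mm10 (8.0.1 in the submitters' processing notes, 7.0.1 in the headers of Rep1) and deposited its UMI counts for each barcode, unscaled. The ambient RNA correction and integration of the study are not in these counts. A barcode counted as a cell if it had 3000 or more genes, with mitochondrial UMIs up to 10% and hemoglobin UMIs up to 5%. Doublets were removed by Scrublet score at the rate expected for the kit (scanpy 1.11.5), since its automatic threshold marked 0.032% and 0.015% of the Rep1 barcodes. The 33448 cells kept held 60.0% to 91.6% of the UMIs of their libraries, with medians of 17241 to 22972 UMIs per cell. They were clustered from 2000 variable genes without the 44 Wnt genes, scaled within each replicate, and 30 principal components aligned between replicates, with 20 neighbours and Leiden at a resolution of 0.8 (leidenalg 0.10.2). A cluster was named where at least 3 markers of a type were in at least 10% of its cells and 2-fold above the other cells, with 1 among its 30 leading genes.

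Counts were summed per library and pool and tested with edgeR 4.0.16 in R 4.3.3 (TMM, filterByExpr, quasi-likelihood, replicate as a block, Benjamini-Hochberg). The replicate number marks the kit, and libraries of a replicate deviated together, with correlations of the deviations from the genotype means of 0.605 to 0.853. Log2 changes within a replicate used a prior count of 2. Fold changes carry the TMM scaling, whereas printed CPM do not. The fits were tested on simulated data. DESeq2 1.42.0, other filters, clusterings and thinning were alternatives. Named genes were all called members, the up to 3 highest per class and type, and the 2 largest changes of the same sign per pool. The members, lists and rules were chosen with earlier results of these data known. Sums held 916564 UMIs (cardiac muscle, cKO Rep1) to 83047714 UMIs, and at the smallest sum 1 UMI is 1.09 CPM. Gene positions are from GENCODE M21 on GRCm38, and the windows before gene starts from RefSeq on GRCm38.p6.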

Additional observations from a re-analysis of the deposited data

Results flagged for a closer look

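The response of *Sfrp2* to genotype in endoderm differed from the mean of the other pools by 1.35 on the log2 scale in a test of that difference, and it was the single Wnt gene of which this was true. Its level was 15.9 CPM in cHet and 9.38 CPM in cKO of Rep1, and 21.0 and 62.6 CPM in Rep2, so the difference rests on the cKO library of Rep2. Groups of 2 libraries are too small for a search for stray samples within a group.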

How the results depend on the processing

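In place of the 8 calls between genotypes there were 0 with no replicate block, where no gene of any kind was called. DESeq2 gave 1, which is of the 8. There were 2 with cells thinned to 5000 UMIs (1 of the 8, and *Lef1* in BrM), 2 with doublets kept (1 of the 8, and *Ror2* in mesenchyme) and 4 with at least 1000 genes per cell, where no cluster could be named aSHF (2 of the 8, *Ror1* in cardiac muscle and *Rspo1* in unnamed cells). All genes of at least 1 count gave 19, the 8 and 11 others. Clustering with the Wnt genes gave 9, of which 4 are of the 8. The fits without 1 library had no block, so only their fold changes are read. Over all genes the calls in endoderm, endothelium, BrM, mesenchyme and unnamed cells were 50, 56, 142, 235 and 78 in the main fit. In that order they were 5, 2, 18, 15 and 69 by DESeq2, and 2, 3, 82, 85 and 217 with cells thinned. Doublets kept gave 5, 4, 3, 189 and 128, and at least 1000 genes per cell 11, 0, 60, 86 and 202. All genes of at least 1 count gave 57, 86, 399, 281 and 598, and clustering with the Wnt genes 21, 10, 115, 93 and 189. The 10 calls of other pathway genes became 0 with no replicate block, 0 by DESeq2 and 13 with all genes of at least 1 count, where *Myc* in MLPs (adjusted p = 0.946) and *Daam1* in otic vesicle (0.0708) were not called. *Myc* in MLPs was not called with RLE size factors either (0.108). *Apcdd1*, *Prickle1* and *Daam1* in otic vesicle were also lost with cells thinned, with doublets kept and with at least 1000 genes per cell. The calls that differ between pools went from 1 to 15 with all genes of at least 1 count. *Sfrp2* in endoderm reversed without cKO replicate 2, to a log2 fold change of -0.84, and ranged up to 1.61 without cKO replicate 1. The other 7 calls, each a gene in a pool, kept their direction under every alternative that gave a value, but not their size. Their smallest log2 fold changes were -0.66 for *Wnt6* (without cKO replicate 2), -1.79 for *Wnt4* (without cKO replicate 1), -0.28 for *Ror2* (with doublets kept), -0.17 for *Dkk1* (without cHet replicate 2), 0.16 for *Wnt5a* (without cHet replicate 1), 0.058 for *Rspo3* in mesenchyme (without cKO replicate 1) and 0.30 for *Rspo3* in unnamed cells (without cHet replicate 2). *Rspo3* in unnamed cells was called under 7 of 12 alternatives and the other calls under 2 or 3. The cause of these changes was not tested. The left-out fits held fewer samples and no replicate block, so in them the kits were unbalanced between genotypes. For the levels 3 alternatives were run, and 30 genes reached 10 CPM in a named type under each. The highest type stayed the same for 39 of the 44 genes with cells thinned, and for all 44 under the other 2. Free RNA was scaled by hemoglobin in Rep1 only, since the small barcodes of Rep2 held almost none. Depth limits the genes that the low-count filter left untested, such as *Wnt2* in BrM. With all genes of at least 1 count edgeR called *Wnt2* there (log2 fold change -2.57, adjusted p = 0.00955), among 399 of 22542 genes.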

Other observations

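Several ligands that were near 0 in the named types lay in unnamed clusters. Cluster 23, led by the neural progenitor genes *Hes5* and *Rfx4*, held 85 of the 96 *Wnt1* UMIs (88.5%), 73.6% of those of *Wnt3a* and 56.5% of those of *Wnt7a*, 3 ligands known from the dorsal neural tube and neural epithelium. Its cells came almost wholly from Rep1, with 106 in cHet and 175 in cKO, against 13 and 2 in Rep2. *Wnt1* was there at 4.23 CPM in cHet Rep1 and 20.1 CPM in cKO Rep1, on 9 and 75 UMIs, and Rep2 gave 1 and 0 UMIs. The higher *Wnt1* count of the unnamed cells in cKO Rep1 (78 UMIs, against 12 in cHet Rep1) therefore lies in a cluster with hardly any cells in Rep2.

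*Wnt16* was highest in cluster 20, led by *Pax3*, *Tcf15* and *Meox2*, genes known from the somites. It was there at 20.2 CPM in cHet and 31.8 CPM in cKO of Rep1, and at 26.3 and 37.8 CPM in Rep2. In the larger unnamed clusters 0, 2, 5, 7 and 12 it was lower in cKO in both replicates, for example in cluster 5 at 10.7 CPM in cHet and 9.40 CPM in cKO of Rep1, and at 15.6 and 13.1 CPM in Rep2. Cluster 4, also among the larger, did not share this, with 5.69 CPM in cHet and 5.74 CPM in cKO of Rep1, and 11.3 and 5.99 CPM in Rep2. Genotypes were not tested within clusters. Over all unnamed cells *Wnt16* was not called (log2 fold change -0.18 ± 0.09 SE, edgeR adjusted p = 0.618).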
